A study of Homo sapiens with 18 samples.

Results

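Of the 115087 regions in which chromatin accessibility was scored by ATAC-seq, 5429 overlapped, by at least 1 base, a peak in every one of the 17 libraries. These shared regions were chosen by measured values, namely the broad peaks called in each library, treated and untreated alike. ATAC-seq reads where a transposase can reach the DNA, and a region's signal is its normalised read count. The libraries came from 3 human head and neck squamous carcinoma lines, SCC1, SCC6 and SCC25, and made up 6 groups. Each line received cetuximab, an antibody that blocks the epidermal growth factor receptor EGFR, at 100 nM daily for 5 days, or PBS. Both arms were grown in medium with 10% serum. Every group held 3 replicates except SCC1 PBS with 2, and SCC1 PBS replicate 2 was not analysed here. Each line is 1 cell population, and nothing in the sources used here says whether replicates were separate cultures, so p-values measure the spread between these samples, which may be technical.

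Regions that are open in most cell types are known to be largely the promoters of housekeeping genes, where CpG islands and the sequences bound by SP/KLF, NF-Y, ETS and NRF1 factors are frequent. Distal elements such as enhancers vary more between cell types, and in epithelial cells many of them carry the site of AP-1. AP-1 is a dimer of FOS and JUN proteins whose amount and activity are raised by the ERK pathway that EGFR feeds. CTCF, which shapes chromatin loops, binds another large class of distal sites.

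Sequences are shown from regions that stand for the main patterns described below. The first set holds distal windows of 120 bases from human build GRCh37 (hg19), plus strand, with the AP-1 site TGACTCA, read on either strand, in capitals. SDC1, DST and FAM184A mark windows whose regions were lower with cetuximab in all 3 lines. The INHBA window lay in the region with the lowest adjusted p among the SCC1 regions that fell, and the TRPC6 window, with the same site, in the region that rose most clearly in SCC6. Each is named by its nearest or host gene.
SDC1, intergenic, chr2:20431623-20431742: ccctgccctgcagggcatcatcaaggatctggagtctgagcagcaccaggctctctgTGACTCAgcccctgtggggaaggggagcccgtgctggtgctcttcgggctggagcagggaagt
DST, intron, chr6:56803645-56803764: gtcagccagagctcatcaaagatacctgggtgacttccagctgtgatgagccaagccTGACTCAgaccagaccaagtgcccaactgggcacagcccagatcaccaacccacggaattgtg
FAM184A, intron, chr6:119468584-119468703: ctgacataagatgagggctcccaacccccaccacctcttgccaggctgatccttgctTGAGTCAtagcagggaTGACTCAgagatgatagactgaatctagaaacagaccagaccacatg
INHBA, intergenic, chr7:41068751-41068870: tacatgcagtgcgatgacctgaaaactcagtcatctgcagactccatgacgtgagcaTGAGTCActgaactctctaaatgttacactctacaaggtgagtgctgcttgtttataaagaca
TRPC6, intron, chr11:101349516-101349635: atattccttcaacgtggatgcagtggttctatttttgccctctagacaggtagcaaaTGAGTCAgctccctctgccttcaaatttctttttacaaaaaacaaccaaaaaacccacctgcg

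The second set holds the 120 bases before an annotated start of 4 promoters, on the gene's own strand, with the SP/KLF box GGGCGG, read on either strand, in capitals. CHD9 and SLC15A4 were among the promoters that varied least over all libraries, and P4HB and STAT3 were promoters that rose in SCC1. The P4HB window held no such box, although its whole region held one within the 300 bases around its centre that were searched for motifs.
CHD9, plus strand, chr16:53164713-53164832: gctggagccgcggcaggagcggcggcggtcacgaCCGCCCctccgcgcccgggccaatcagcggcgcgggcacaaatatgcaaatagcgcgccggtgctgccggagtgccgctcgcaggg
SLC15A4, minus strand, chr12:129308504-129308623: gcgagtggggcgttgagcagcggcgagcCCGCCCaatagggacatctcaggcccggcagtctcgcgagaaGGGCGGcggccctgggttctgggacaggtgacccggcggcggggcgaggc
P4HB, minus strand, chr17:79818733-79818852: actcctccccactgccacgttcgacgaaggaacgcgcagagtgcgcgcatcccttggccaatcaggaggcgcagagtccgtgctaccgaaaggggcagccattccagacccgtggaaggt
STAT3, minus strand, chr17:40540559-40540678: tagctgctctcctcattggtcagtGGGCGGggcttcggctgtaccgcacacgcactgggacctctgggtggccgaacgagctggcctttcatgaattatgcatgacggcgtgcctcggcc

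The shared regions were mostly promoters. A region within 1000 bases of an annotated start of a protein-coding gene was taken as a promoter, and 3146 of the 5429 regions met this, or 57.9% (95% Wilson interval 56.63 to 59.26%, counting error only) beside 13.5% of all regions. Starts of non-coding genes held 371, introns away from any start 1086, exons away from any start 81 and intergenic sequence 745, which gave 1912 distal regions. Seen from the other side, 20.3% of promoter regions had a peak in every library, beside 2.00% of intronic and 2.09% of intergenic ones. Of 19807 protein-coding genes, 3675 had a shared region at a start, or 18.6%. Starts of 2 genes on opposite strands shared 1 region in 510 cases. By chromosome, 5.73% of the regions on chromosome 1 were shared, the highest share, and 1.80% of those on X, the lowest.

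Level, width and base composition went with the number of libraries that had a peak, which is what chose the regions, so these values are a description. The mean signal over libraries had a median of 182 in shared regions and of 116 in the 3164 regions just outside the rule, with a peak in all libraries but 1. The median over all regions was 22.4. Median width was 658, 570 and 258 bases in the same order, and median GC content 60.3, 57.8 and 46.0%. The ratio of observed to expected CpG was 0.713, 0.538 and 0.216. The share at promoters was 57.9, 45.0 and 13.5%, so the regions just outside already resembled the shared ones.

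**Figure D1:**
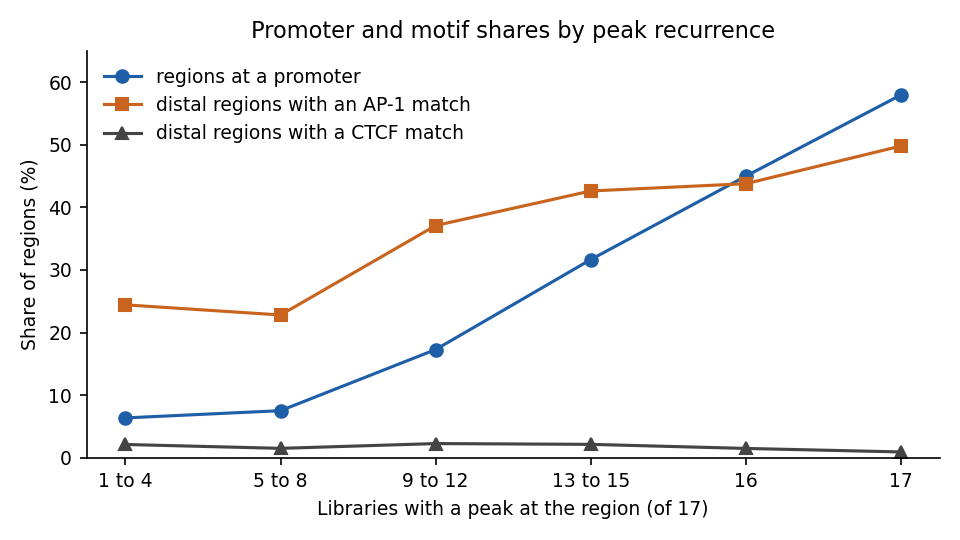
Share of regions that lie at promoters, and shares of distal regions with the AP-1 or CTCF motif, in percent, against the number of libraries with a peak. From 1 to 4 libraries up to 17, the share at promoters went from 6.38 to 57.9% and the share of distal regions with AP-1 from 24.4 to 49.8%.

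The rule depended on the shallowest libraries. SCC1 cetuximab replicate 2, with 13035 peaks and the fewest reads in regions (2194851), was the only library without a peak in 1403 of the 3164 regions just outside. SCC25 cetuximab replicate 3 was the only one lacking in 977 and SCC25 cetuximab replicate 1 in 392. Reads in regions reached 15017130 in the deepest library. Shared regions held 21.3 to 27.5% of them, and the median shared region held 87 to 540 reads, depending on the library. The 1403 regions missed by SCC1 cetuximab replicate 2 alone had a median log2 difference between cetuximab and PBS of -0.02 in SCC1. For the 119 missed by SCC1 cetuximab replicate 3 alone it was -0.35 (of 117 tested, 24 lower and 0 higher by the limma test used below). For the 66 missed by SCC6 PBS replicate 1 alone it was 0.63 in SCC6 (of 59 tested, 31 higher and 0 lower). Over all regions tested, 6.56% were lower in SCC1 and 16.9% higher in SCC6. A missing peak in 1 arm favours a lower value in that arm, so the choice itself favours these signs. In SCC25 the sets of 977 and 392 had medians of -0.07 and -0.10, with 0 called.

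A peak in every library did not always come with signal. In 57 shared regions the signal was at 1 read, the value given to 0, in every library. Of these, 32 had a near-identical copy elsewhere in the genome (at least 95% identity over at least 80% of the length), and 34 were promoters. Of the 57, 10 lay on X, none with such a copy, and these included the promoters of PGK1, DKC1, EMD and HDAC6. For all 57 no level is known from the signal table, and 105 shared regions were too low to be tested in at least 1 line. Across regions with a peak in a library, signal had a Spearman correlation of -0.02 to 0.08 with the deposited fold enrichment, over 17 libraries. With the number of bases that the peaks covered the correlation was 0.57 to 0.73. These are correlations across regions of 1 library, which share its depth. The enrichment was therefore not used as a measure of strength.

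Motifs were searched in the 300 bases around each region's centre on both strands, and a match describes letters, not binding. Among distal shared regions 952 of 1912, or 49.8%, held TGACTCA, beside 27.2% of all distal regions. CTCF's motif went the other way, at 0.941% (18 regions) beside 1.9%. At promoters GGGCGG stood in 76.1% of shared regions and in 63.7% of all promoter regions, and the NF-Y box CCAAT in 44.6 and 31.1%. The NRF1 site was found in 4.04 and 2.46%, and TGACTCA in 3.27 and 7.53%. The AP-1 share was also higher at like signal. Between 120 and 240, 50.6% of the distal shared regions held the site, beside 35.0% of other distal regions, and between 60 and 120 the shares were 55.1 and 39.3%. The lower CTCF share was not seen at like signal. Between 60 and 120, 11 of 554 distal shared regions held its motif (1.99%), beside 0.995% of other distal regions, and between 120 and 240 the shares were 0.400 and 0.439%.

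Gene groups differed in how often a start lay in a shared region. Against 18.6% of all protein-coding genes, the share was 50% for DNA replication and mitosis (20 of 40 genes, among them MCM2, PCNA, CDK1 and TOP2A) and 44.9% for chaperones (31 of 69, among them HSPA5, HSPA8 and HSPD1). It was 40.6% for translation factors (28 of 69), 38.6% for splicing (22 of 57), 33.3% for the proteasome (16 of 48) and 31.3% for the respiratory chain (26 of 83). Mitochondrial ribosomal proteins stood at 26.9% (21 of 78). Cytosolic ribosomal proteins, among the most highly transcribed genes of any cell, stood at 16.1% (14 of 87) and histones at 13.2% (9 of 68). Zinc finger genes had 17.9% (91 of 508), and 7.72% (19 of 246) where they lay on chromosome 19. None of 390 olfactory receptors, which epithelial cells keep silent, had one. The 18.6% counts genes without any region at a start. Among genes with one, the share was 27.3% for all protein-coding genes. On that base DNA replication and mitosis stood at 50%, chaperones at 49.2% and the respiratory chain at 34.2%. Mitochondrial ribosomal proteins stood at 28%, near that of all genes, and zinc finger genes at 20.6% and ribosomal proteins at 18.4%, below it.

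For genes around EGFR, starts in shared regions were found for 10 of 35 genes of ERK output (28.6%), among them DUSP6, SPRY2, ETV5 and MYC, and for 4 of 20 receptors (20%), namely EGFR, MET, TGFBR1 and TGFBR2. RAS and PI3K signalling had 6 of 23 (26.1%), and TEAD and Hippo genes 5 of 13 (38.5%). Among genes with any region at a start the shares were 31.25% for ERK output and 25% for receptors. They were 26.1% for RAS and PI3K and 38.5% for TEAD and Hippo, beside 27.3% for all protein-coding genes. The EGFR region was an alternative start (chr7:55177063-55177379), while the main promoter had a peak in 16 libraries. None of 7 EGFR ligands had one. TFAP2A, a transcription factor of squamous epithelium, was 1 of 5 TFAP2 genes with a shared region, and ESRP1 and ESRP2, splicing regulators of epithelial cells, were 2 of 16 genes (12.5%) of the epithelial to mesenchymal transition. Of 33 squamous genes, 5 had a shared region at a start (15.2%), among them KLF5, PKP3 and LAMA3.

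The rule did not hold the markers that define the lines. All 10 squamous epithelial markers had a region, with a mean signal between 29.6 and 131, but none had a shared one: CDH1 had a peak in 14 libraries, EPCAM in 16 and KRT14 in 6. No marker of leukocytes (4 genes), endothelium (3) or liver (2) had a region at its start. Of 3 fibroblast markers 2 had a region, and that of COL1A1, with a peak in 14 libraries and a mean signal of 134, stood above every squamous marker. All 3 neuronal markers had a region, and SYT1 had a shared one, with a mean signal of 87.9. Of the usual reference genes, TBP had a shared region, while GAPDH had a peak in 12 libraries, ACTB in 13 and PPIA in 16. In bulk samples fewer open cells and less signal per open cell cannot be told apart.

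Levels of shared regions varied little between the lines. The rule favours this, since asking for a peak in every library leaves out regions that are low in any line. The values are therefore a description. The SD of log2 signal over the 17 libraries had a median of 0.375, beside 0.441 in regions just outside and 0.972 in all. The largest ratio between the untreated means of any pair of lines had a median of 1.63, and it was below 2 in 73.7% of shared regions and in 30.0% of all. The most even promoters belonged to CHD9 (a chromodomain helicase) and LDHB (lactate dehydrogenase B), each with an SD of 0.10. SLC15A4 and OXCT1 each had an SD of 0.11. At CHD9 (chr16:53164248-53165039) the PBS signals were 393 and 405 in SCC1, 428, 441 and 461 in SCC6, and 503, 399 and 427 in SCC25. With cetuximab they were 458, 424 and 432, then 403, 417 and 450, then 398, 472 and 459. The arms overlapped in SCC6 and SCC25, and in SCC1 the treated values lay just above the untreated ones.

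Regions that differed between the lines were few, which the same rule favours. An untreated difference beyond 2 on the log2 scale was found in 1.33% of shared regions between SCC6 and SCC1, beside 28.3% of all regions tested. Between SCC25 and SCC1 it was 0.263 and 15.8%, and between SCC25 and SCC6 1.13 and 31.5%. Of the 10 shared regions with the highest signal per kilobase, 5 lay in one interval, chr11:99196544-103480569, where SCC6 stood far above both other lines. The promoter of CEP126, a centrosomal protein, read 5437, 4866 and 5367 in SCC6 PBS, 298 and 283 in SCC1 PBS, and 355, 329 and 325 in SCC25 PBS. The SCC6 values did not come near the others.

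The ends of this interval are those of the outermost of 15 shared regions on chromosome 11 that stood out as highest in SCC6. An excess of SCC6 within it is therefore a description. Within this interval 17 shared regions had a median log2 excess of SCC6 over the higher of the other lines of 3.13, and 14 exceeded it more than 4-fold. Of all 5327 shared regions tested, 16 did so, so nearly every such region lay there. The 325 tested regions of the interval, shared or not, had a median excess of 2.67. The number of DNA copies in these lines was not measured here, and its part in the level was not tested. With cetuximab, 3 of the 17 rose and 8 fell in SCC6, beside 98 and 107 of all 325. The promoter of BIRC3, an inhibitor of apoptosis, went from 2947, 2688 and 2784 to 1980, 1975 and 1714, a log2 difference of -0.57 ± 0.05 (SE, limma adjusted p = 2.52e-12).

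**Figure D2:**
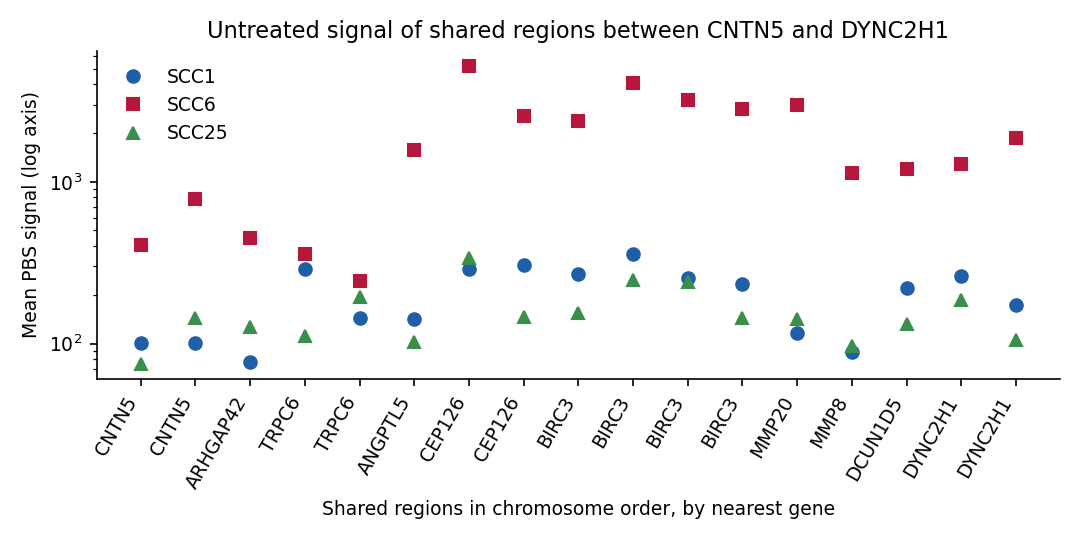
Mean PBS signal, on a log axis, of the 17 shared regions in the chromosome 11 interval in each line, in chromosome order and named by the nearest gene. SCC6 stands above both other lines at all 17, least at the TRPC6 regions, with a median log2 excess of 3.13 over the higher of them. The interval was drawn around shared regions high in SCC6.

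The response to cetuximab was tested in each line with limma on log2(signal + 1), over all regions left after the lowest 25% by mean signal, two-sided, at an adjusted p of 0.05. Differences are cetuximab minus PBS on this log2 scale. In SCC1, 534 of 5354 shared regions tested rose (9.97%, beside 4.57% of all regions) and 297 fell (5.55%, beside 6.56%). In SCC6, 500 of 5328 rose (9.38%, beside 16.9% of all) and 798 fell (15%, beside 10.6%). In SCC25, none of 5349 rose (beside 0.0405% of all) and 10 fell (0.187%, beside 0.275%). Median differences of shared regions were 0.02, -0.08 and -0.05, beside -0.09, 0.11 and -0.08 over all regions tested. Shared regions had smaller errors, with a median SE of 0.197 in SCC1 and 0.125 in SCC6, beside 0.449 and 0.282 over all. The called shares therefore mix precision with response. The median absolute difference of called regions was 0.725 in SCC1 and 0.451 in SCC6, beside 1.23 and 1.09 over all. A larger error also asks for a larger difference before a region is called.

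The calls in SCC1 and SCC25 rested on few libraries. Without SCC1 PBS replicate 1, the counts that rose and fell in SCC1 were 131 and 43; without SCC1 PBS replicate 3 they were 182 and 97, and without SCC1 cetuximab replicate 1 they were 208 and 183. Without the shallow SCC1 cetuximab replicate 2 they were 873 and 407. In SCC6, leaving out 1 library gave 370 to 455 higher and 546 to 665 lower. In SCC25, 633 of 5349 shared regions tested had an unadjusted p under 0.05, of which 156 rose. Over all regions it was 11405 of 86315, of which 3084 rose. On recovered reads edgeR called 30 higher and 24 lower shared regions in SCC25, and DESeq2 12 and 6. The edgeR and DESeq2 counts over all regions are not reported here. Without any 1 of the SCC25 PBS replicates no region fell.

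With the signal as deposited, called promoters mostly rose in SCC1 and fell in SCC6. Called distal regions mostly fell in SCC1 and went both ways in SCC6. In SCC1, 455 of 3111 shared promoters rose and 22 fell, with a median of 0.11, while 49 of 1890 distal regions rose and 250 fell, with a median of -0.17. In SCC6, 40 of 3108 promoters rose and 470 fell (median -0.11), and 417 of 1874 distal regions rose and 287 fell (median 0.02). The same split ran through the whole table. In SCC1, 14.6% of shared promoters rose, beside 13.6% of all promoter regions, and 13.2% of shared distal regions fell, beside 7.64% of all distal ones. In SCC6, 15.1% of shared promoters fell, beside 10.9% of all, and 22.3% of shared distal regions rose, beside 19.8%. In SCC25 1 promoter and 9 distal regions fell.

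Base composition moved with this split. Across shared regions, GC content had a Spearman correlation with the difference of 0.40 in SCC1, -0.22 in SCC6 and 0.33 in SCC25, described over regions that share libraries. With the GC trend of all regions removed within each library, SCC1 promoters had 218 higher and 150 lower (median -0.04) and distal regions 92 and 131 (median -0.01). SCC6 promoters then had 72 higher and 90 lower (median 0.00) and distal regions 337 and 260 (median 0.01). When libraries were instead set to equal medians, the difference over all regions had a median of 0.11 in SCC1 and -0.07 in SCC6. It gave 872 higher and 0 lower promoters in SCC1 and 10 and 1523 in SCC6, and turned the SCC6 distal count to 245 higher and 541 lower. On recovered reads the SCC6 distal count was 361 higher and 370 lower with edgeR, and 262 and 338 with DESeq2. The opposite directions of promoters thus depended on whether GC content was adjusted for, and the balance of SCC6 distal regions on the scaling and the test. What part base composition had in the split was not tested.

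**Figure D3:**
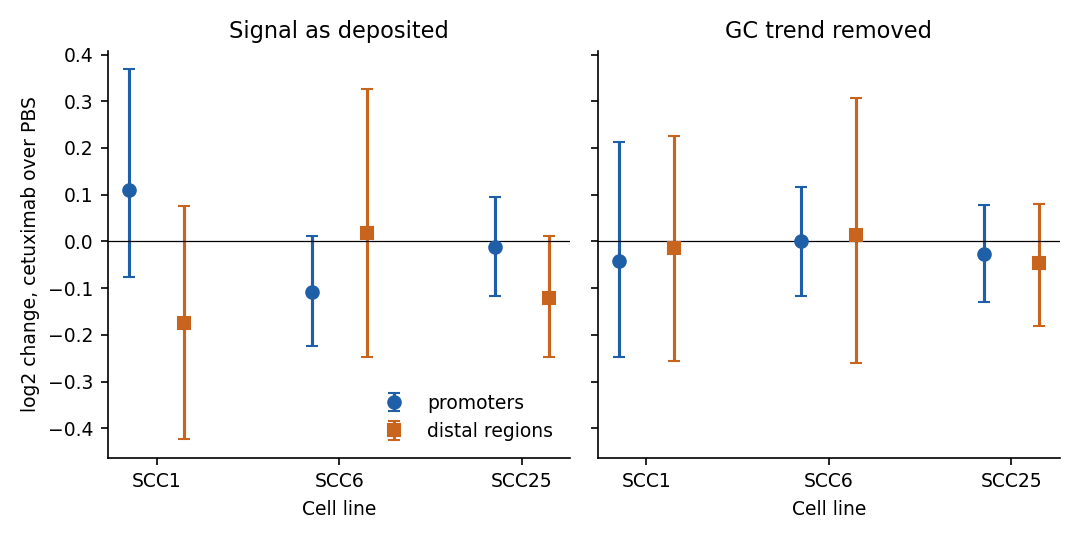
Log2 difference between cetuximab and PBS (vertical axis) of shared promoters and shared distal regions in each line, from the signal as deposited on the left and with the GC trend removed on the right. Points are medians over regions and bars run from the lower to the upper quartile. On the left the SCC1 medians are 0.11 for promoters and -0.17 for distal regions, and on the right -0.04 and -0.01.

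The AP-1 site was used to divide the distal shared regions, with a motif that the rule did not use. Of 944 with the site tested in SCC1, 151 fell and 15 rose (median -0.23), beside 99 and 34 of the 934 with neither AP-1 nor CTCF motif (median -0.12). In SCC6, 163 of 943 fell and 176 rose (median 0.01), beside 123 and 241 of 920. In SCC25, 7 of 942 fell, beside 2. The distal regions with AP-1 over the whole table fell likewise in SCC1, with 2655 of 22991 lower and 309 higher (median -0.38). In SCC6, 3553 of 19108 such regions fell and 2679 rose over the whole table (median -0.10). With the GC trend removed, 75 shared AP-1 regions fell and 27 rose in SCC1, beside 56 and 65 of those with neither motif. In SCC6 the shared AP-1 regions then had 155 lower and 139 higher, the reverse balance. The difference between the motif classes itself was not tested.

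A fit over all lines, with line as a covariate, gave 95 higher (1.78%, beside 5.14% of all regions) and 382 lower (7.17%, beside 7.04%) of 5327 shared regions. Distal regions held 277 of the lower ones, beside 78 promoters, and 176 of the 277 carried AP-1. Of the 1872 shared distal regions tested, 941 carried it. Over the whole table the same fit gave 5471 lower distal regions, of which 3206 carried AP-1, and 288 lower promoter regions. Of the 67332 distal regions tested over the whole table, 21585 carried AP-1, a lower base than in the shared ones. A high share of AP-1 among lower distal regions was thus not particular to the shared ones. Against these bases the excess was smaller in the shared regions. The treatment effect differed between lines (limma F-test of the interaction) in 971 shared regions, or 18.2%, beside 13.2% of all regions tested. Errors were smaller in shared regions over all lines too (median SE 0.102, beside 0.231), so these shares also mix precision with response. Of the 5324 shared regions tested in every line, 3419 were called in none, 1675 in 1, 226 in a pair of lines and 4 in all 3. The same counts over all regions are not reported here.

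Of the regions called in both SCC1 and SCC6, 229 in all, 111 had the same direction, with 91 lower and 20 higher in both. Over all shared regions tested in every line, called or not, 48.0% had the same sign in SCC1 and SCC6. The 229 were 27.6% of the SCC1 calls and 17.6% of the SCC6 calls. Of all 5324 shared regions tested in every line, SCC6 called 1298 and SCC1 called 831. Whether the overlap went beyond what these rates give was not tested. Each line has its own PBS libraries, so the comparisons share no controls. At promoters 63 of 72 were higher in SCC1 and lower in SCC6. At distal regions 76 of 140 fell in both, 18 rose in both and 40 fell in SCC1 but rose in SCC6. Matching counts over all regions are not reported here, so what is particular to the shared regions cannot be read from these.

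**Figure D4:**
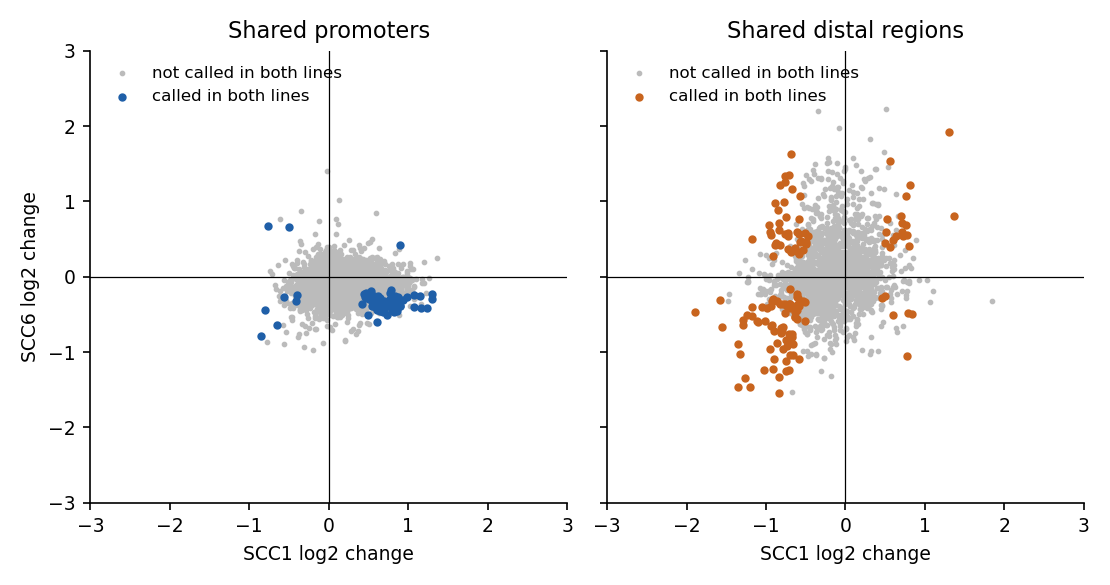
Log2 difference between cetuximab and PBS of shared regions in SCC6 against SCC1, promoters and distal regions in separate panels, with regions called in both lines marked. Of the 72 marked promoters, 63 lie where SCC1 is higher and SCC6 lower, and 76 of the 140 marked distal regions lie where both are lower.

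All 4 regions called in every line fell, were distal and held the AP-1 site. The region 6.16 kb from SDC1, the gene of the epithelial heparan sulfate proteoglycan syndecan-1 (chr2:20431349-20431803, intergenic), read 489 and 453 in SCC1 PBS and 263, 199 and 293 with cetuximab. In SCC6 it read 373, 309 and 347 against 192, 231 and 240, and in SCC25 226, 214 and 234 against 145, 143 and 122. No treated library overlapped an untreated one of its line. In SCC25 this was part of the rule that picked the SDC1, DST and FAM184A regions. It was also common among called shared regions, holding for 515 of 534 higher and 294 of 297 lower in SCC1. In SCC6 it held for 481 of 500 and 744 of 798. Matching counts over all called regions are not reported here, so it is no mark of the shared ones. The log2 differences of the SDC1 region were -0.92 ± 0.17 (SE), -0.64 ± 0.10 and -0.72 ± 0.13, with limma adjusted p of 7.79e-06, 5.27e-06 and 0.0239. Over all lines its difference was -0.75 (limma adjusted p = 5.62e-05). The SCC25 call was lost without any 1 of the 3 SCC25 PBS replicates.

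DST encodes dystonin, which ties keratin filaments to hemidesmosomes. Its intronic region (chr6:56803399-56803960) read 181 and 162 against 103, 107 and 111 in SCC1, 155, 162 and 184 against 87.9, 92.8 and 105 in SCC6, and 254, 228 and 226 against 115, 155 and 168 in SCC25. The arms were apart in each line, and the log2 differences were -0.67 ± 0.23, -0.80 ± 0.15 and -0.70 ± 0.14 (limma adjusted p = 0.0362, 3.17e-05 and 0.0307). The SCC1 call was lost without any library but cetuximab replicate 2, and the SCC25 call without any PBS replicate or cetuximab replicate 1.

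An intron of FAM184A (chr6:119468248-119468922) read 226 and 218 against 92.7, 121 and 98.6 in SCC1, 300, 339 and 286 against 211, 208 and 188 in SCC6, and 289, 268 and 326 against 204, 208 and 179 in SCC25. No arm overlapped, with log2 differences of -1.10 ± 0.22, -0.60 ± 0.11 and -0.58 ± 0.12 (limma adjusted p = 0.000104, 1.65e-05 and 0.0347). The intergenic region whose nearest start was INHBA, 671 kb away (chr7:41068625-41069082), read 190 and 247 against 59.7, 68.1 and 46.9 in SCC1. It read 168, 174 and 158 against 132, 124 and 105 in SCC6, and 185, 163 and 168 against 95.6, 102 and 120 in SCC25. Its log2 difference of -1.89 ± 0.25 in SCC1 exceeded -0.47 ± 0.14 in SCC6 and -0.70 ± 0.15 in SCC25 (limma adjusted p of the interaction 0.000463). The SCC25 calls of both regions were lost without any 1 PBS replicate, and the INHBA region's also without SCC25 cetuximab replicate 1 or 2 and, in SCC6, without PBS replicate 2 or cetuximab replicate 3.

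Other distal regions were called in 1 line or in a pair of lines. The region between genes nearest to SERPINB1 (chr6:2810258-2810863), a protease inhibitor, went from 397 and 338 to 145, 152 and 161 in SCC1 and from 254, 202 and 221 to 82.8, 93.8 and 88.3 in SCC6. In SCC25 it read 155, 156 and 175 against 145, 151 and 138. The arms were apart in all lines but by little in SCC25, and the log2 differences were -1.26 ± 0.19, -1.34 ± 0.14 and -0.16 ± 0.14 (limma adjusted p = 4.8e-08, 1.51e-10 and 0.655, interaction 0.000114). A region in an intron of SLCO1B3-SLCO1B7 (chr12:21226256-21227260) went in opposite directions, from 530 and 384 to 231, 210 and 163 in SCC1 and from 391, 432 and 455 to 666, 619 and 533 in SCC6. The differences were -1.17 ± 0.17 and 0.50 ± 0.08 (limma adjusted p = 3.15e-08 and 3.19e-06, interaction 1.24e-06).

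The clearest rise was an intron of TRPC6, a calcium-permeable channel (chr11:101349223-101350035), in SCC6. It read 384, 337 and 347 in PBS and 1701, 1648 and 1564 with cetuximab, a log2 difference of 2.20 ± 0.06 (limma adjusted p = 6.36e-31). In SCC1 it read 291 and 287 against 194, 237 and 252, and in SCC25 119, 112 and 100 against 114, 137 and 117, neither past the threshold. Its AP-1 site is the same heptamer as in the regions that fell. An intron of KIRREL1, a cell adhesion protein (chr1:157998629-157999166), rose from 43.5, 42.2 and 31.5 to 202, 173 and 182 in SCC6 and was called in no other line (2.23 ± 0.18, limma adjusted p = 1.15e-13, interaction 3.48e-07). The intergenic region nearest to TFRC, the transferrin receptor (chr3:195862725-195863672), rose in SCC6 from 108, 121 and 108 to 311, 329 and 344 and in SCC1 from 284 and 299 to 500, 352 and 457. Its differences were 1.54 ± 0.12 and 0.57 ± 0.16 (limma adjusted p = 1.6e-14 and 0.00707). The SCC1 call was lost without either PBS replicate or cetuximab replicate 1.

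**Figure D5:**
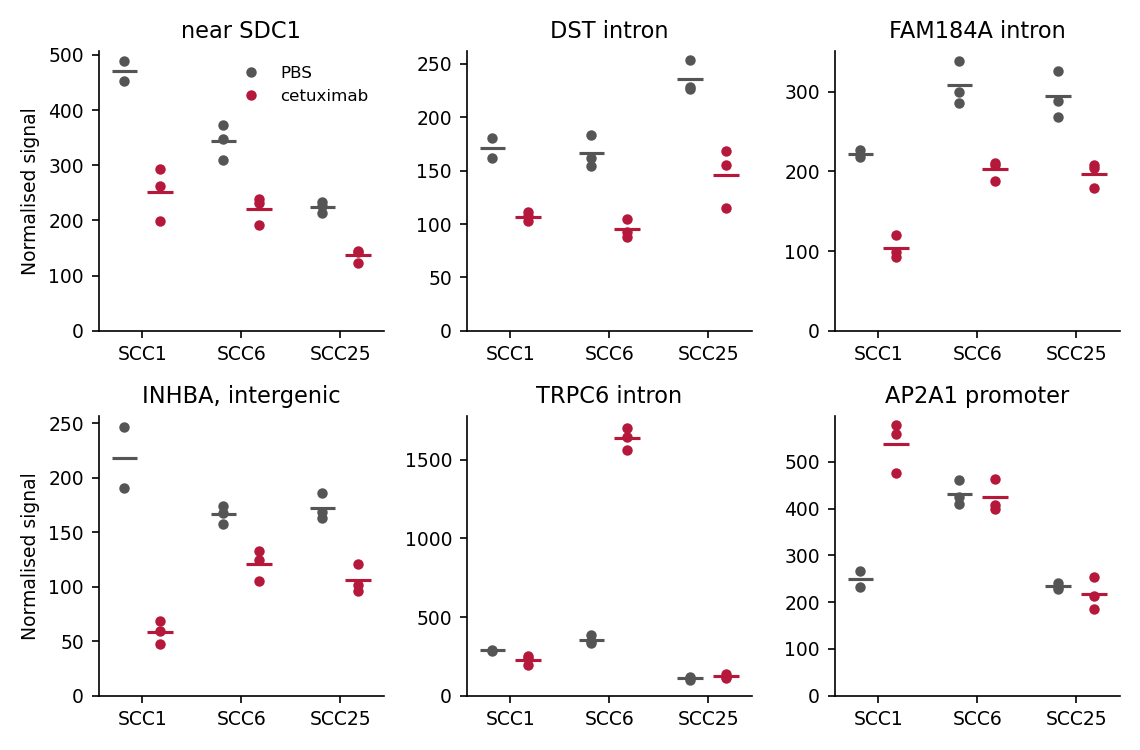
Normalised signal of 6 shared regions in every library (points) with group means (bars), by line and treatment, on linear axes from 0. Treated and untreated libraries lie apart in every line at SDC1, DST, FAM184A and INHBA. They lie far apart at TRPC6 in SCC6 and at AP2A1 in SCC1.

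The promoters with the lowest adjusted p among those that rose in SCC1 belonged to AP2A1, PRMT1, P4HB, NAPA and the gene pair ELP5 and CTDNEP1. The promoter of AP2A1, a subunit of the clathrin adaptor AP-2 (chr19:50269526-50270240), went from 267 and 233 to 558, 477 and 579 in SCC1 and from 425, 460 and 410 to 400, 408 and 463 in SCC6. The SCC1 arms were apart and the SCC6 arms overlapped, with log2 differences of 1.10 ± 0.15 and -0.03 ± 0.08 (limma adjusted p = 2.36e-09 and 0.819, interaction 2.14e-05). PRMT1, an arginine methyltransferase (chr19:50179722-50180509), went from 208 and 201 to 574, 362 and 459 (1.15 ± 0.16, limma adjusted p = 5.73e-09). P4HB, a protein disulfide isomerase (chr17:79818365-79819124), went from 307 and 317 to 759, 457 and 723 (1.01 ± 0.15, limma adjusted p = 1.52e-08). In both, the lowest treated library was the shallow replicate 2. NAPA, which takes apart membrane fusion complexes, rose in SCC1 by 1.24 ± 0.19 and fell in SCC6 by 0.41 ± 0.12 (limma adjusted p = 1.01e-07 and 0.00563). The SCC6 call was lost with the GC trend removed and without SCC6 PBS replicate 1.

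Calls in the housekeeping groups are to be read against 454 higher and 20 lower in SCC1 and 36 and 466 in SCC6 among all 3092 regions at starts. Translation factors had 11 higher in SCC1 and 2 lower in SCC6, splicing 8 and 2, the respiratory chain 6 and 3, and DNA replication and mitosis 4 and 5. The proteasome had 4 and 1, mitochondrial ribosomal proteins 3 and 3, and histones 1 and 1. Chaperones had 4 higher in SCC1 and ribosomal proteins 2, with none lower in SCC6. Zinc finger genes had 22 higher in SCC1 and 15 lower in SCC6. No region of these groups fell in SCC1 or rose in SCC6. LIG1, a DNA ligase, rose from 101 and 112 to 245, 191 and 247 in SCC1 (1.08 ± 0.21) and fell from 226, 230 and 202 to 131, 175 and 195 in SCC6 (-0.41 ± 0.13), with limma adjusted p of 4.05e-05 and 0.0136. The cyclin-dependent kinase gene CDK1 fell in SCC6 from 269, 211 and 256 to 193, 176 and 148 (-0.51 ± 0.12, limma adjusted p = 0.00113). The LIG1 fall was lost with the GC trend removed and without SCC6 PBS replicate 2 or cetuximab replicate 1.

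The lists of EGFR signalling and of the epithelium held few regions, so their counts say little beside those of all starts. Of the 10 ERK output genes, KLF10 rose in SCC1, and EGR2 and MYC fell in SCC6. The KLF10 call was lost with the GC trend removed and without either SCC1 PBS replicate or cetuximab replicate 1, and the MYC call with the GC trend removed and without any SCC6 library but cetuximab replicate 3. EGR2, an early response transcription factor, fell in SCC6 from 225, 230 and 252 to 177, 139 and 165 (-0.56 ± 0.12, limma adjusted p = 0.00033). DUSP6, the phosphatase that acts on ERK, had differences of 0.08, 0.11 and 0.03 and was not called in any line. The alternative EGFR start rose in SCC6 from 118, 127 and 116 to 153, 179 and 159 (0.43 ± 0.14, limma adjusted p = 0.0151), a call lost without SCC6 cetuximab replicate 2. TGFBR1 was the receptor that fell in SCC6 (-0.26 ± 0.08, limma adjusted p = 0.0186), a call lost with the GC trend removed and without PBS replicate 2 or 3 or cetuximab replicate 1 or 3. TFAP2A fell in SCC6 from 695, 589 and 660 to 580, 558 and 555 (-0.20 ± 0.07, limma adjusted p = 0.0355), a call lost with the GC trend removed and without PBS replicate 1 or 3 or cetuximab replicate 2 or 3.

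The promoter of ESRP2 rose in SCC1 from 195 and 156 to 341, 236 and 351 (0.80 ± 0.18, limma adjusted p = 0.000737), and that of STAT3, a transcription factor activated by growth factor receptors, from 195 and 166 to 396, 222 and 308 (0.73 ± 0.18, limma adjusted p = 0.00231). Both had arms that did not overlap. Both calls were lost without SCC1 PBS replicate 3, and the STAT3 call also without cetuximab replicate 1. ESRP1 fell in SCC6 (-0.24 ± 0.09, limma adjusted p = 0.0291), a call lost with the GC trend removed and without PBS replicate 3 or cetuximab replicate 1 or 3. Among the 5 squamous genes 1 rose in SCC1 and 2 fell in SCC6. PKP3, a desmosome protein, rose in SCC1 (0.81 ± 0.20, limma adjusted p = 0.00178) and LAMA3, a laminin chain of the basement membrane, fell in SCC6 (-0.49 ± 0.15, limma adjusted p = 0.0124). The PKP3 call was lost with the GC trend removed and without either SCC1 PBS replicate, the LAMA3 call without SCC6 PBS replicate 2 or cetuximab replicate 2. No gene of these lists was called in SCC25.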

How the data were processed

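ATAC-seq libraries of SCC1, SCC6 and SCC25 treated with cetuximab or PBS were analysed from the deposited tables. The authors trimmed reads with Trim Galore 0.5.0, aligned them to hg19 with Bowtie2 2.3.2 and filtered them with Picard 2.18 and SAMtools 1.9. They called broad peaks with MACS2 per library and merged them with DiffBind, whose versions are not given in the sources used here. The deposited region signal is a normalised read count, with 0 set to 1 read. All values were whole multiples of 1 step per library (tolerance 0.001), so reads were recovered. The deposited peak files hold a fold enrichment (a ratio), −log10 p and q values and an integer score from the authors' peak caller. They were used for peak positions and, for q and enrichment, for a description.

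Overlaps were found with bedtools 2.31.1 and near-identical copies with minimap2 2.31. Annotation came from the reference gene models on GRCh37. Motifs were matched on both strands. The main test was limma 3.58.1 in R 4.3.3, with trend and robust variance and Benjamini-Hochberg adjustment, per line, over all lines and for the interaction, on log2(signal + 1) after leaving out the lowest 25% of regions. Alternatives were edgeR 4.0.16, DESeq2 1.42.0, other scalings, filters, pseudocounts, membership rules and leaving out each library. The main limma test of each comparison was checked on simulated data, the alternatives were not. Members and gene lists were chosen with earlier results of these data known. Regions were named by a rule on signal, spread, adjusted p in each contrast and gene lists, and by every listed gene of ERK output, receptors, EMT, TFAP2 and squamous genes. Those picked by adjusted p in a line also had to have treated and untreated libraries that did not overlap there. The regions named by that rule numbered 112. PGK1, DKC1, EMD, HDAC6 and the reference and marker genes were named after their values were seen. Some genes of the lists are not reported here.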

Additional observations from a re-analysis of the deposited data

Results flagged for a closer look

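Regions whose response differed most between the lines, by the limma F-test of the interaction, were introns on 3 chromosomes. The TRPC6 region at chr11:101349223-101350035 had an adjusted p of 2.11e-10 (limma), with log2 differences of -0.35 in SCC1, 2.20 in SCC6 and 0.15 in SCC25. A second TRPC6 region at chr11:101591869-101592398 had a limma adjusted p of 1.09e-07, and rose in SCC6 by 1.64 while the SCC1 value was -0.69 and the SCC25 value -0.49. The KIRREL1 region had a limma adjusted p of 3.48e-07, with 0.51, 2.23 and -0.09. The region with EXT1 as its nearest start, in an intron of SAMD12, had the same limma adjusted p of 3.48e-07. It fell in SCC1 (-0.71), rose in SCC6 (1.35) and stood at 0.06 in SCC25.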

How the results depend on the processing

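The number of shared regions was 352 when peaks had to cover 50% of a region, and 3 when only peaks with a −log10 q of 5 or more counted. Leaving out a library gave 5429 to 6832. Promoters made up 59.5% with starts within 3 kb. Under the 50% rule the higher and lower counts were 44 and 15 in SCC1, 19 and 51 in SCC6, 1 lower in SCC25, and 1 and 21 over all lines, with 66 interaction calls, because few regions were left. With each library centred on its median the counts were 1057 and 120 in SCC1, 272 and 2182 in SCC6, 4 and 1 in SCC25, 205 lower over all lines and 2178 for the interaction. With the GC trend removed they were 332 higher in SCC1, 374 lower in SCC6, 2 and 6 in SCC25 and 202 higher over all lines. Quantile scaling gave 4 and 4 in SCC25, cyclic loess 5 higher there and 476 lower in SCC6, and centring on the shared regions 3 and 4 in SCC25 and 152 higher over all lines. Pseudocounts of 0.5 and 5 gave 6 and 16 lower in SCC25. edgeR gave 1200 lower in SCC6, 30 and 24 in SCC25 and 1495 for the interaction, and DESeq2 134 lower in SCC1, 295 higher in SCC6, 12 and 6 in SCC25 and 204 higher over all lines. All libraries in 1 fit gave 396 lower in SCC6 and 2 in SCC25. Apart from these settings' own construction, the causes were not tested.

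Leaving out 1 library gave 131 to 873 higher and 43 to 407 lower in SCC1, 370 to 455 and 546 to 665 in SCC6, 0 to 4 and 0 to 35 in SCC25, 56 to 109 and 252 to 440 over all lines, and 655 to 1328 interaction calls. Replicate numbers were not used as pairs in the main test. The deviations of same-numbered libraries from their group means were nearly uncorrelated. With so few libraries in a group this cannot show that the samples were unpaired. With the replicate block, SCC1 had 888 higher, SCC25 6 higher and 30 lower, and all lines 19 higher and 139 lower. In SCC1 the block leaves cetuximab replicate 2 without a PBS partner, and the count without that library was 873 higher. Of 179 called values of named regions, 90 stayed past the threshold under every setting, and no log2 difference changed direction. The interaction values among the 179 have no direction, so the latter covers only the other values. The removal of the GC trend ended 50. A pair of alternatives was chosen after seeing the data, as were the counts for promoters and for distal regions on their own. Of the pair, leaving out regions with a copy or a mean under 15 gave 524 and 295 in SCC1 and 496 and 789 in SCC6, and adding those missed only by SCC1 cetuximab replicate 2 gave 638 and 421, and 593 and 1001. The limits were the depth of the shallowest libraries, the 2 SCC1 PBS libraries and the 57 regions with no signal above 1 read.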
